A study of Rattus norvegicus with 10 samples.

Results

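The genes described here code for ion channels that sense stretch, osmolality, heat or acid, for the water channels called aquaporins, and for the transporters and kinases that set cell volume. They were chosen by name alone from the deposited table: the TRPA, TRPC, TRPM and TRPV channels, the aquaporins, the LRRC8 subunits, the SLC12 cotransporters, the WNK kinases, the PIEZO channels and the acid-sensing ASIC channels, with Nfat5, Stk39 and Oxsr1. The rule also named Slc5a3, which is not analysed here. It found 59 of the 32623 genes in the table. Of these, 49 had a mean of at least 10 normalized counts over all samples and were tested, among 15597 genes that passed this filter.

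The tissue, the supraoptic nucleus, came from male Sprague-Dawley rats and was collected as a punch 2 weeks after injection of adeno-associated virus. In each rat, the nucleus on one side received virus with a hairpin RNA that silences Opn3, the gene of the light-sensitive receptor opsin 3 (group shOpn3). A virus with a non-targeting hairpin went to the nucleus on the opposite side (group shControl). Each group held 5 samples, numbered 1 to 5 in both, and since both had received a virus no uninjected nucleus is compared. Age, the promoter that drives the hairpins and the cells that took up the virus are not given in the sources used here.

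Magnocellular neurons of this nucleus release vasopressin and oxytocin and respond to the osmolality of the fluid around them. They shrink in concentrated fluid, and cation channels of the TRPV group, among them a variant of Trpv1, have been linked to the firing that follows. Glia take part as well: astrocytes move water through aquaporin 4, and swollen cells release chloride and small organic solutes through channels built from LRRC8A and its relatives. SLC12 cotransporters carry chloride into the cell together with sodium and potassium, or out of it with potassium. The WNK kinases switch on the kinases SPAK (Stk39) and OSR1 (Oxsr1), which activate the inward and restrain the outward carriers.

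Values are normalized counts, the reads of a gene divided by a size factor of the sample. Lengths were not used, so levels are compared between samples of a gene and not between genes. A gene is said to have risen or fallen, or is called, when its limma p-value, adjusted over all 15597 genes by the Benjamini-Hochberg method, was under 0.05. Log2 fold changes are shOpn3 over shControl on the log2(normalized count + 1) scale, with the standard error (SE). Libraries held 33158341 to 39958578 recovered reads. Opn3 itself stood at 261 to 1007 normalized counts in shControl and at 145 to 289.7 in shOpn3 (-1.82 on the log2 scale, SE 0.320, adjusted p in limma = 0.00226), lower in 5 of 5 pairs of same-numbered samples. The library labelled shControl replicate 5, the lowest control, lay within the range of the shOpn3 samples.

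Of the 49 members tested, 11 were called (22.4%), 5 higher and 6 lower, where 18.8% of all genes tested were called, 10.4% higher and 8.48% lower. The members as a group were called at a share near that of the whole table, and their median log2 fold change was -0.01, beside -0.02 for all genes tested. Trpc6, Trpm2, Trpc7, Asic4, Slc12a2, Stk39 and Oxsr1 were called in each of the 21 alternative fits too. Without shControl replicate 5, 12 members were called, 10 of them among the 11, and without shOpn3 replicate 3 the 7 just named were called. With the replicate number as a block, 18 members were called, 8 higher and 10 lower, including all 11, against 30.3% of all genes (15.1% higher, 15.2% lower). edgeR on the recovered reads called 10 of 49 members and 19.4% of all genes, and with the block 16 members and 30.6%. DESeq2 called 14 of 52 members and 21.3% of all genes. At an unadjusted limma p under 0.05 there were 18 members, beside 32.0% of all genes. In 24 of the 49 members all 5 pairs differed in 1 direction, beside 39.4% of all genes.

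**Figure D1:**
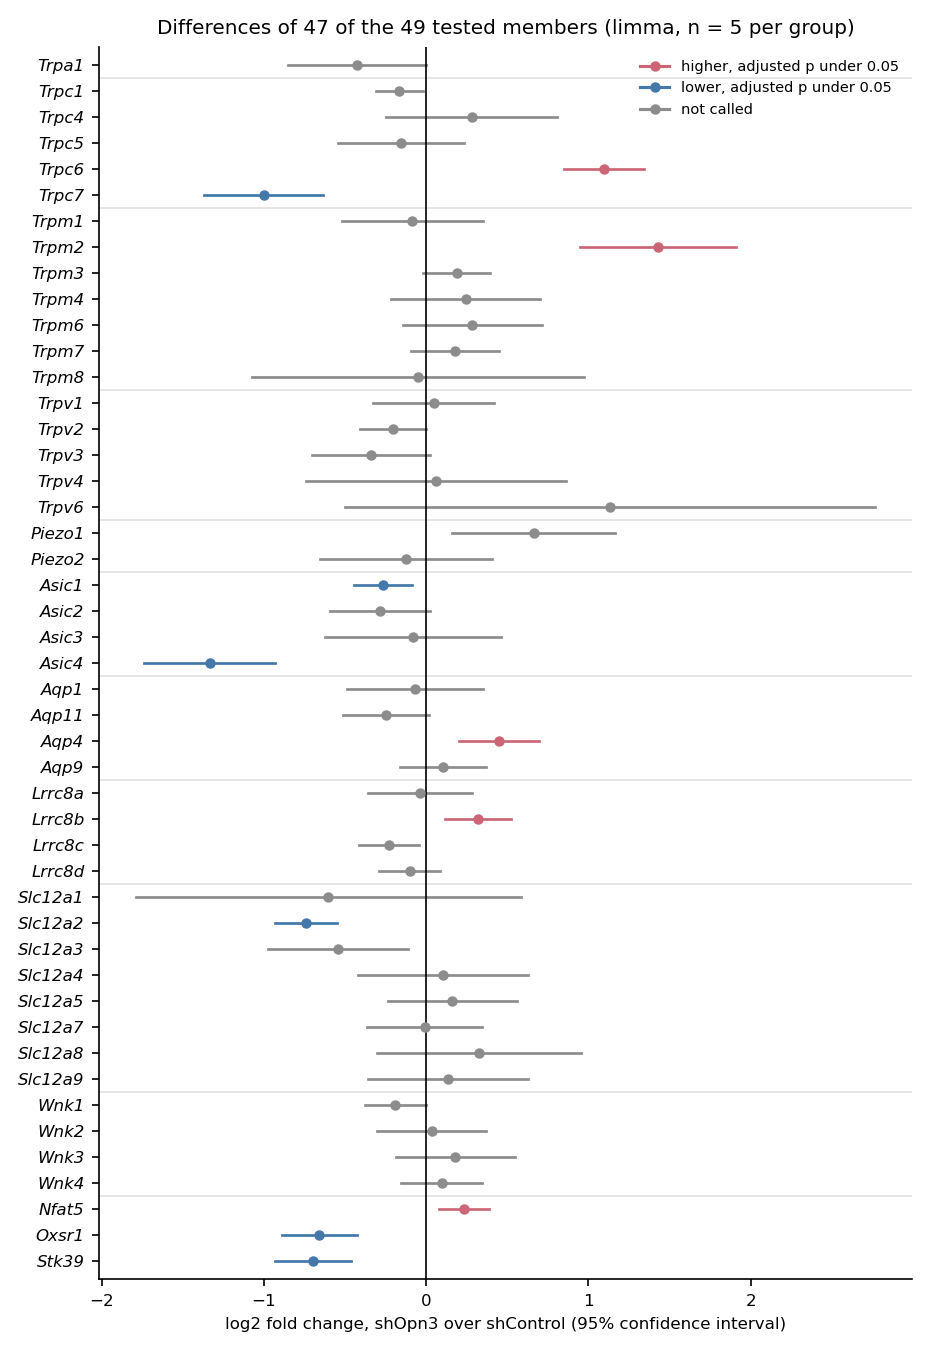
Log2 fold change of 47 of the 49 tested members, shOpn3 over shControl, with its 95% confidence interval from limma (n = 5 per group), grouped by family. Red marks the 5 higher and blue the 6 lower members with an adjusted p under 0.05, of which Trpm2 (1.43) and Trpc6 (1.09) lie farthest to the right and Asic4 (-1.33) and Trpc7 (-1.0) farthest to the left.

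Cell type markers moved between the groups, and they are given first because glia make several of the members. All 8 oligodendrocyte markers fell, and their summed normalized counts were 731349 to 1246219.6 in shControl and 249044 to 470895 in shOpn3. Of 8 microglial markers 7 rose, with sums of 8425 to 12206 and 15666 to 31163. Of 8 astrocyte markers 2 rose (Gfap and Gja1) and 1 fell (Glul), with overlapping sums of 253839 to 341967 and 278710.2 to 380233. Of 8 neuronal markers 1 rose and 2 fell, again with overlapping sums (130156 to 185864 and 126808 to 214232). Avp and Oxt, the defining transcripts of magnocellular neurons, both fell (log2 fold changes -2.35 and -2.21). The 3 T-cell markers rose from low sums (38.8 to 86.1, then 83.9 to 254). Of 6 markers of the choroid plexus, a tissue rich in transporters, Otx2 had 0 reads, and their sums were 1313 to 3794 in shControl, highest in replicate 5, and 1229 to 1486 in shOpn3. In bulk tissue of this kind, fewer cells of a type and less RNA per cell cannot be told apart.

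**Figure D2:**
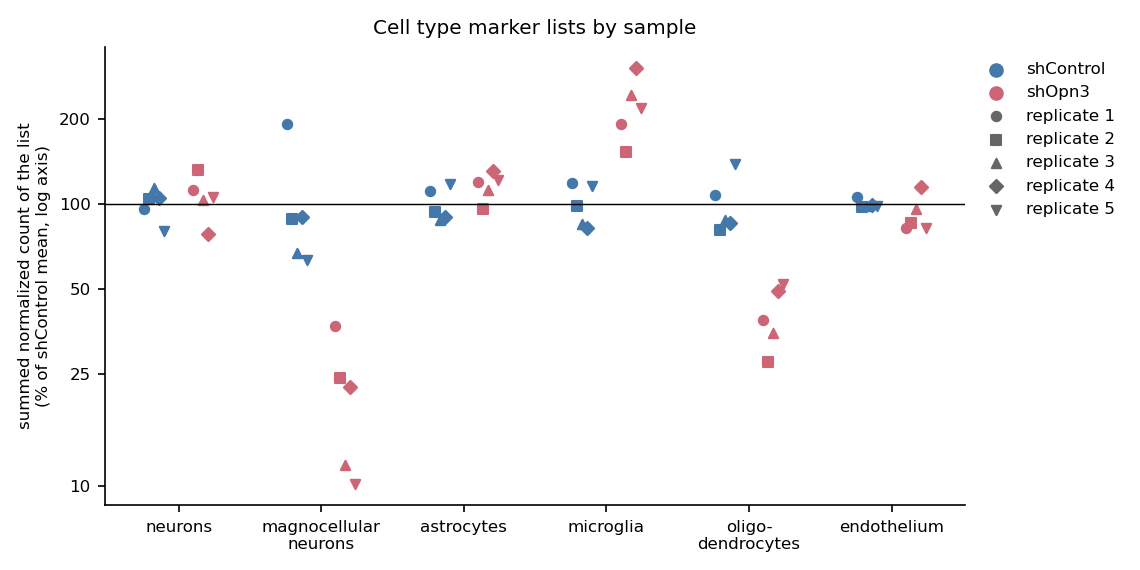
Summed normalized count of 6 of the marker lists in each sample, as a percentage of the shControl mean on a log axis, in blue for shControl and red for shOpn3 (n = 5 per group), with symbols for the replicate number. The oligodendrocyte and magnocellular sums of all 5 shOpn3 samples lie below those of all shControl samples, and the microglial sums lie above them.

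The inward chloride carrier and both of its activating kinases fell. Slc12a2 (ENSRNOG00000015971), which codes for the sodium-potassium-chloride cotransporter NKCC1, had 11794, 12712, 13571, 12602 and 14809.7 normalized counts in shControl replicates 1 to 5 and 7293, 6977, 7734, 9012 and 8265 in shOpn3 replicates 1 to 5. Every shOpn3 sample lay below every shControl sample, with means of 13098 ± 1146 and 7856 ± 808 (SD of 5 samples each; -0.74 on the log2 scale, SE 0.0880, adjusted p in limma = 0.000348). Stk39 (ENSRNOG00000024808) had 5606, 6315, 7258, 6879.8 and 5011 in shControl and 3708, 4498, 3768, 3577 and 3524 in shOpn3. Here too the groups were apart, with means of 6214 ± 916 and 3815 ± 394 (SD of 5 samples each; -0.70 on the log2 scale, SE 0.108, adjusted p in limma = 0.00109). Oxsr1 (ENSRNOG00000013136) had 5362, 5127, 5694, 5692 and 7009 in shControl and 3238, 3199, 3577, 4102 and 4198 in shOpn3, without overlap (-0.66 on the log2 scale, SE 0.105, adjusted p in limma = 0.00133). The shOpn3 mean was 60.0% of the shControl mean for Slc12a2, 61.4% for Stk39 and 63.4% for Oxsr1. Within shControl the 3 genes did not follow the same order. Replicate 5 was the highest control for Slc12a2 and for Oxsr1, but the lowest for Stk39. The 8 oligodendrocyte markers fell in the same samples, with a median log2 fold change of -1.27, and their part in these falls was not tested.

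The regions in front of these 3 genes are shown because the transcripts of all 3 fell. They are the 250 bases before the annotated start, from RefSeq (build GRCr8): chr18:53546083-53546332 on the plus strand for Slc12a2, chr3:73586980-73587229 on the minus strand for Stk39 and chr8:127939751-127940000 on the minus strand for Oxsr1. They read 5′ to 3′ along the gene. Capitals mark a match, on either strand, to a motif searched. The core of the site bound by NFAT5 was searched as TGGAAA. The cyclic AMP response element was searched as TGACGTCA. The box known for binding of Sp1, the GC box, was searched as GGGCGG. The TATA box was searched as TATAAA and the interferon-stimulated response element under its usual core.
Slc12a2: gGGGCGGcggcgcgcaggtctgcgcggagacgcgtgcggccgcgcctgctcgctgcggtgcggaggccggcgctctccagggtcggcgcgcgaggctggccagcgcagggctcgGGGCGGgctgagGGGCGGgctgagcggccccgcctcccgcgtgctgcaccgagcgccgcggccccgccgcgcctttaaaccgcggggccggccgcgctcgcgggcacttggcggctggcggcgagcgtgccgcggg
Stk39: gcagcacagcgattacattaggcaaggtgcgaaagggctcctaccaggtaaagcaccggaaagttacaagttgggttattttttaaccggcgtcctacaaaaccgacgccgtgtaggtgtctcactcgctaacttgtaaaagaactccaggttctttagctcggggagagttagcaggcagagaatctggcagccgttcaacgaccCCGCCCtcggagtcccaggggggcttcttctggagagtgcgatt
Oxsr1: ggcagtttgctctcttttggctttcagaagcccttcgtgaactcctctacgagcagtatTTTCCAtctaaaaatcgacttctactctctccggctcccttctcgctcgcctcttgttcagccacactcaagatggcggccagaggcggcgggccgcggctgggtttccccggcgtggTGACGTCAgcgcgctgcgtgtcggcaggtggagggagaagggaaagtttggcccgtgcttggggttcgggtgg
Slc12a2 held 3 GC boxes and Stk39 held 1, where 30.5% of all 33469 windows of this length held at least 1. Oxsr1 held 1 cyclic AMP response element (1.59% of all windows) and 1 NFAT5 core (19.7% of all windows). No motif searched was found in all 3. RefSeq windows were found for 51 of the 59 members. The tested members had 49 windows, since a gene with several starts has several. Of these 10 (20.4%) held the NFAT5 core, 21 (42.9%) the GC box, 5 (10.2%) the TATA box (12.9% of all windows), 2 (4.08%) the cyclic AMP response element and 0 the interferon element (3.41% of all windows).

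The WNK kinases, which act before SPAK and OSR1, gave 0 calls among 4 tested by limma, edgeR or DESeq2, with 1 (Wnk1) at an unadjusted limma p under 0.05. The limma shares over all genes tested were 18.8% called and 32.0% at an unadjusted p under 0.05, so 4 genes are too few to differ from them. Wnk1 had 12842, 14533, 15803, 14475 and 16026 normalized counts in shControl and 11809, 11582, 13652, 14244 and 13226 in shOpn3. Each shOpn3 sample lay below its same-numbered control, but the groups overlapped (-0.19 on the log2 scale, SE 0.0864, adjusted p in limma = 0.148). Wnk2, Wnk3 and Wnk4 had shControl and shOpn3 means of 1369.8 ± 347 and 1384 ± 216, of 1599 ± 438 and 1760.1 ± 158 and of 111 ± 3.86 and 119 ± 11.8 normalized counts (SD of 5 samples each).

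Of the other 8 SLC12 carriers, limma and edgeR called 0 and DESeq2 called 1 (Slc12a3), which was also the 1 at an unadjusted limma p under 0.05. Over all genes, limma called 18.8%, edgeR 19.4% and DESeq2 21.3%. Slc12a5 codes for KCC2, the neuronal carrier that takes chloride out. It had 6951, 4486, 4027, 3846 and 4735 normalized counts in shControl and 7096, 5378, 4310, 3999.9 and 6083 in shOpn3. It was higher in shOpn3 in 5 of 5 pairs by a small amount, and replicate 1 was the highest sample of both groups (log2 fold change 0.16, 95% confidence interval -0.23 to 0.56, limma adjusted p = 0.586). Leaving out 1 sample gave 0.053 (without shOpn3 replicate 1) to 0.303 (without shControl replicate 1). The ratio of Slc12a5 to Slc12a2 normalized counts is used only to compare samples. It was 0.589, 0.353, 0.297, 0.305 and 0.320 in shControl replicates 1 to 5 and 0.973, 0.771, 0.557, 0.444 and 0.736 in shOpn3. It was higher in shOpn3 in 5 of 5 pairs, with an overlap of the groups through shControl replicate 1. On the log2 scale its means were -1.47 ± 0.409 and -0.57 ± 0.439 (SD of 5 samples each), a difference of 0.90. Most of this came from the fall of Slc12a2 (-0.74), since Slc12a5 was not called (0.16). In bulk tissue both transcripts can come from different cells, so the ratio does not describe chloride transport in any cell type. Slc12a4, Slc12a7, Slc12a8 and Slc12a9 overlapped between the groups, with shControl and shOpn3 means of 1685 ± 713 and 1715 ± 303, of 669 ± 111 and 671 ± 160.2, of 16.8 ± 5.44 and 21.2 ± 7.02 and of 323 ± 123 and 341 ± 63.2 normalized counts (SD of 5 samples each).

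Both carriers best known from the kidney were called by limma with the replicate block and not without it. Slc12a1, which codes for NKCC2, the target of loop diuretics, had 168, 234, 185, 348 and 43.3 normalized counts in shControl and 90.2, 166, 140.2, 183 and 34.9 in shOpn3. Replicate 5 was the lowest and replicate 4 the highest in both groups, and each shOpn3 sample lay below its same-numbered control. In the fit without a block the size of the difference varied with single samples (-0.60 on the log2 scale, SE 0.545, adjusted p in limma = 0.487). With the block the SE was 0.131 and the adjusted p in limma 0.0108. In fits without the block the difference was -1.07 without shControl replicate 5, -0.33 without shControl replicate 4 and -0.21 without shOpn3 replicate 5. Slc12a1 was called with sample quality weights too. Slc12a3, the thiazide-sensitive sodium chloride cotransporter, had 63.2, 73.3, 64.3, 44.9 and 72.8 in shControl and 51.8, 51.0, 45.8, 30.9 and 38.0 in shOpn3. The groups overlapped through shControl replicate 4 (-0.54 on the log2 scale, SE 0.198, adjusted p in limma = 0.0769, with the block 0.0265). Without a block it was also called by DESeq2, with quantile normalization, with sample quality weights and without shControl replicate 4.

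**Figure D3:**
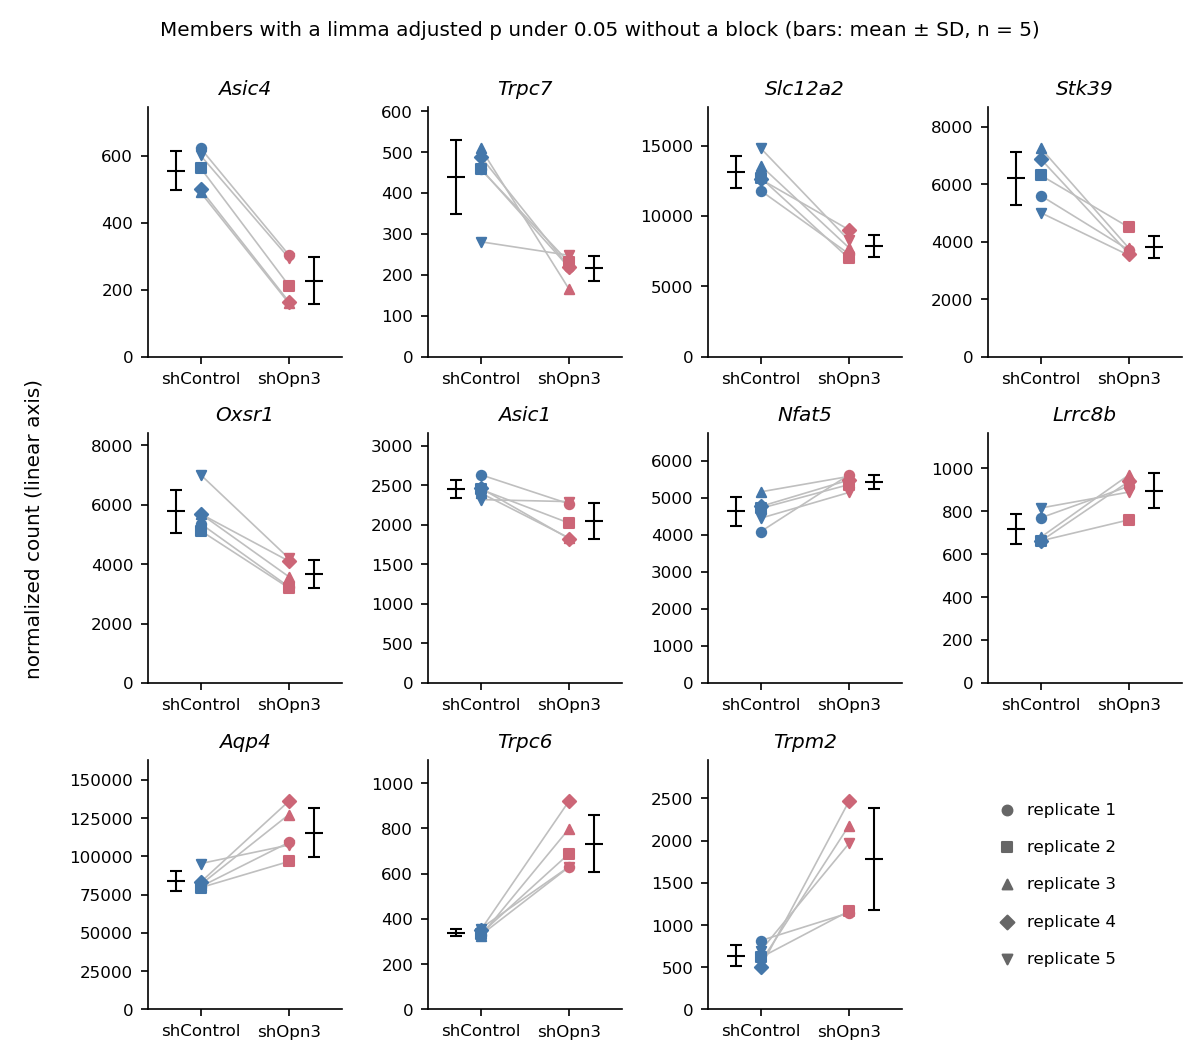
Normalized counts of the 11 members called without a block, in shControl (blue) and shOpn3 (red), on linear axes from 0. Lines join samples of the same replicate number and bars give the mean ± SD (n = 5). Each of the 11 genes differs in the same direction in 5 of 5 pairs, and the groups overlap for Lrrc8b and Nfat5.

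Among the TRPC channels, the close relatives Trpc6 and Trpc7 moved in opposite directions. Both code for cation channels opened by diacylglycerol. Trpc6 (ENSRNOG00000006324) had 328, 335, 325, 351 and 358 normalized counts in shControl and 629, 688, 798, 921 and 631 in shOpn3. The controls were close together and every shOpn3 sample lay far above them, with means of 339 ± 14.5 and 733 ± 125 (SD of 5 samples each; 1.09 on the log2 scale, SE 0.113, adjusted p in limma = 0.000176). Trpc7 (ENSRNOG00000012727) had 459.8, 458, 509, 489 and 281 in shControl and 218, 230.5, 165, 219 and 248 in shOpn3. The groups did not overlap, although shControl replicate 5 came near the shOpn3 samples (-1.0 on the log2 scale, SE 0.169, adjusted p in limma = 0.00177). The microglial and magnocellular marker sums moved in the same samples, and their part in these differences was not tested.

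Trpc1, which joins other TRPC subunits in channels, had 1369, 1341, 1523, 1453 and 1421 normalized counts in shControl and 1220.3, 1329, 1274, 1209 and 1298 in shOpn3. It is singled out, after its values were seen, because the groups did not overlap although it was not called (-0.17 on the log2 scale, SE 0.0662, adjusted p in limma = 0.103). The authors' deposited table gave Trpc1 an adjusted p of 0.0489. Trpc4 and Trpc5 overlapped between the groups, at 379.8 to 877 against 463 to 1058 and at 891 to 1674 against 921 to 1492. In all, 10 of the 49 members (20.4%) had groups apart, 3 higher and 7 lower, beside 15.3% of all genes tested (8.03% higher, 7.23% lower).

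Trpm2 rose more than any other member that was called. It codes for a calcium-permeable channel opened by ADP-ribose under oxidative stress and is known from microglia and macrophages as well as neurons. Trpm2 (ENSRNOG00000001216) had 816, 616, 561, 504 and 697 normalized counts in shControl and 1144, 1165, 2178, 2467 and 1966 in shOpn3. All shOpn3 samples were above all controls, and replicates 3, 4 and 5 of shOpn3 lay well above replicates 1 and 2 (means 639 ± 122 and 1784 ± 602, SD of 5 samples each; 1.43 on the log2 scale, SE 0.220, adjusted p in limma = 0.00109). The summed microglial markers were also highest in those 3 shOpn3 samples, and their part in the rise of Trpm2 was not tested.

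Trpm7, a channel with a kinase domain that carries magnesium and calcium, had 2465, 3231, 3719, 3532 and 2641 normalized counts in shControl and 2941, 3580.2, 3909, 3823 and 3244 in shOpn3. The replicate numbers ran in the same order in both groups, and limma called the difference with the block and not without it (0.18 on the log2 scale, SE 0.124, adjusted p in limma = 0.361, with the block 0.0412). edgeR with the block did not call it (0.0624 after adjustment), and leaving out 1 sample gave 0.0972 (without shControl replicate 1) to 0.245 (without shControl replicate 3). The other TRPM channels tested were not called. Trpm3, a heat-sensitive channel, had shControl and shOpn3 means of 4847 ± 661 and 5482 ± 306 normalized counts, and Trpm6, a relative of Trpm7 that carries magnesium, had 200.1 ± 52.1 and 242 ± 54.1 (SD of 5 samples each). Trpm4, a sodium-permeable channel opened by calcium, had means of 77.2 ± 20.5 and 90.3 ± 16.7, Trpm1 of 55.4 ± 13.2 and 51.6 ± 9.28 and Trpm8, the cold and menthol receptor, of 13.3 ± 7.64 and 11.9 ± 5.85 (SD of 5 samples each).

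The TRPV channels, the group most often tied to osmosensing, gave 0 calls among 5 tested by limma, edgeR or DESeq2, with 0 at an unadjusted limma p under 0.05. Over all genes tested, limma called 18.8%, and 32.0% had an unadjusted p under 0.05. With only 5 genes, 0 calls cannot be set apart from these shares. Among the alternatives, quantile normalization called Trpv3 and sample quality weights called Trpv2 and Trpv6. Trpv1, the capsaicin and heat receptor, had 71.4, 52.9, 65.3, 57.1 and 62.2 normalized counts in shControl and 53.7, 53.1, 84.1, 73.4 and 58.6 in shOpn3. The groups lay over each other (log2 fold change 0.05, 95% confidence interval -0.33 to 0.42, limma adjusted p = 0.885). Trpv4, which opens on cell swelling, had 19.4, 12.2, 7.14, 19.7 and 32.7 in shControl and 18.2, 11.7, 13.1, 27.0 and 18.5 in shOpn3. At these few reads the interval was wide and a change of either sign within it was not detectable (log2 fold change 0.06, 95% confidence interval -0.74 to 0.86, limma adjusted p = 0.933). Trpv2, a relative that also responds to stretch, had 988, 919.9, 899, 957 and 785 in shControl and 927, 767, 701, 782 and 782 in shOpn3. It was lower in 5 of 5 pairs with overlapping groups (-0.20 on the log2 scale, SE 0.0936, adjusted p in limma = 0.159). Trpv3, whose gene lies next to Trpv1, had means of 79.1 ± 16.3 and 61.7 ± 7.11 (SD of 5 samples each). Trpv6, a calcium-selective channel of epithelia, had 14.3, 1.02, 3.06, 0.936 and 17.9 in shControl and 16.3, 14.9, 10.3, 1.93 and 24.7 in shOpn3 and stood just inside the filter with a mean of 10.5, with Lrrc8e just outside it at 9.03. The Trpv6 means were 7.44 in shControl and 13.6 in shOpn3 (log2 fold change 1.13, SE 0.751, limma adjusted p = 0.330). It passed the filter only through shOpn3, so its call with sample quality weights lends no support to a rise.

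Trpa1, a channel opened by irritants, had 93.8, 126, 134, 114 and 68.6 normalized counts in shControl and 78.7, 85.0, 86.0, 82.1 and 58.6 in shOpn3. It was lower in 5 of 5 pairs, with replicate 5 the lowest of both groups (-0.43 on the log2 scale, SE 0.196, adjusted p in limma = 0.154, with the block 0.0309), and it was also called without shControl replicate 5 and with sample quality weights. Piezo1, a channel gated by membrane stretch, had 399.6, 237, 205, 230.3 and 332 in shControl and 436, 269.8, 396, 616 and 518 in shOpn3. It was higher in 5 of 5 pairs with overlapping groups (0.66 on the log2 scale, SE 0.231, adjusted p in limma = 0.0664, with the block 0.0274), and the authors' deposited table gave it an adjusted p of 0.0246. Without a block it was also called without shControl replicate 1, without shOpn3 replicate 2, with quantile normalization and with sample quality weights. Piezo2, known from touch-sensing neurons, had 85.6, 90.6, 81.6, 71.2 and 45.4 in shControl and 93.1, 83.9, 42.1, 60.9 and 65.7 in shOpn3. Its groups overlapped and it was not called (log2 fold change -0.13, 95% confidence interval -0.66 to 0.41, limma adjusted p = 0.768). The difference between the PIEZO genes was not tested.

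**Figure D4:**
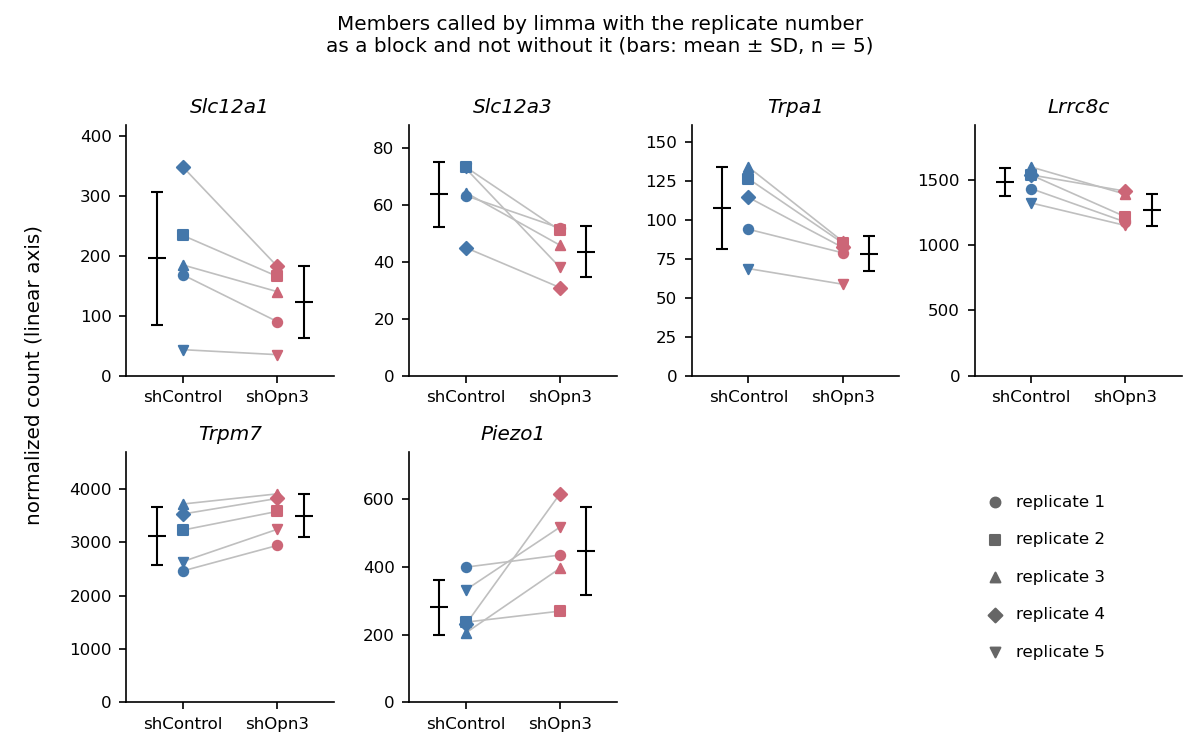
Normalized counts of 6 of the 7 members that limma called with the replicate number as a block and not in the fit without it, in shControl (blue) and shOpn3 (red), on linear axes from 0, with lines between samples of the same replicate number and bars for the mean ± SD (n = 5). For each gene the lines run the same way in 5 of 5 pairs while the groups overlap.

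Of 4 ASIC channels tested 2 fell and 0 rose, beside 8.48% lower and 10.4% higher over all genes tested. Asic4 (ENSRNOG00000019985), a subunit that forms no proton-gated channel on its own, had 623, 564, 491, 500 and 601 normalized counts in shControl and 304, 212, 159.8, 164 and 295 in shOpn3. This was the largest fall among the tested members, to 40.9% of the shControl mean, without overlap (-1.33 on the log2 scale, SE 0.186, adjusted p in limma = 0.000682). Replicates 1 and 5 were the highest samples of both groups. Avp and Oxt fell in the same samples, and their part in this fall was not tested. Asic1 (ENSRNOG00000059765), a main subunit of proton-gated currents in brain neurons, had 2631, 2446, 2400.2, 2462 and 2317 in shControl and 2264, 2021, 1834, 1825 and 2292 in shOpn3, also without overlap (-0.27 on the log2 scale, SE 0.0824, adjusted p in limma = 0.0410). Its call was lost in 9 of 21 alternative fits, with adjusted p from 0.0151 to 0.114. Asic2 and Asic3 had shControl and shOpn3 means of 628 ± 74.8 and 522 ± 104 and of 19.4 ± 4.13 and 18.5 ± 5.28 (SD of 5 samples each) and were not called.

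Of 10 aquaporins in the table, 4 were tested and 1 was called, beside 18.8% of all genes tested. Aqp4 (ENSRNOG00000016043), the water channel of astrocyte end-feet, had 80199, 79582, 81524, 83143 and 95299 normalized counts in shControl and 109113, 96639.7, 127288, 136039 and 107379 in shOpn3. The highest control, replicate 5, lay just below the lowest shOpn3 sample, replicate 2, and the means were 83949 ± 6489.9 and 115292 ± 15992 (SD of 5 samples each; 0.45 on the log2 scale, SE 0.113, adjusted p in limma = 0.0155). Without shOpn3 replicate 3 the log2 fold change was 0.41 and the limma adjusted p 0.0512. In the same samples the astrocyte markers Gfap and Gja1 rose by 1.10 and 0.42 on the log2 scale, Glul changed by -0.38 and 5 of the 8 were not called. Their part in the rise of Aqp4 was not tested.

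The remaining aquaporins tested overlapped between the groups. Aqp9, which also carries glycerol, had shControl and shOpn3 means of 478 ± 85.3 and 511 ± 53.7 normalized counts, Aqp1, the water channel of the choroid plexus, had 226 ± 59.1 and 209 ± 28.4, and Aqp11, found on membranes inside cells, had 289 ± 36.2 and 243 ± 26.9 (SD of 5 samples each). The kidney water channel Aqp2, which vasopressin regulates, had 3 reads over all 10 libraries. Aqp5 had 25 reads, Aqp3 and Aqp8 had 4 each, Aqp7 had 1 and Aqp6 had 0. The other members under the filter were Trpm5 with 27 reads, Trpv5 with 12, Asic5 with 6 and Lrrc8e with 91 over all libraries.

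The subunits of the volume-regulated anion channel did not move as one. Lrrc8a, the subunit that such channels require, had 2373, 1657, 1438, 1652 and 1981 normalized counts in shControl and 2076, 1399, 1489, 1925 and 1937 in shOpn3. The groups overlapped over most of their range (log2 fold change -0.04, 95% confidence interval -0.36 to 0.28, limma adjusted p = 0.885). Lrrc8b (ENSRNOG00000002129) had 769, 661, 679, 660.1 and 814 in shControl and 916, 759, 969, 939 and 889 in shOpn3. It rose in 5 of 5 pairs with overlapping groups (0.32 on the log2 scale, SE 0.0945, adjusted p in limma = 0.0333). The call was lost on leaving out any of 7 single samples (shControl replicates 2, 3 and 4, shOpn3 replicates 1, 3, 4 and 5), with adjusted p from 0.000971 to 0.0928 over all 21 alternatives. Lrrc8c had 1430.3, 1534, 1596, 1536 and 1321 in shControl and 1175, 1215, 1388, 1411 and 1149 in shOpn3, lower in 5 of 5 pairs with overlapping groups (-0.23 on the log2 scale, SE 0.0854, adjusted p in limma = 0.0845, with the block 0.0170), and it was also called without shControl replicate 5 and with sample quality weights. Lrrc8d had means of 1973 ± 156 and 1841 ± 187 (SD of 5 samples each) and was not called.

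In the RefSeq annotation Lrrc8d, Lrrc8c and Lrrc8b lie side by side with 0 other coding genes between them. With the block, the neighbours Lrrc8b and Lrrc8c were called in opposite directions, and the 250 bases before their starts are shown for that contrast. They lie at chr14:4721077-4721326 for Lrrc8b and at chr14:4620015-4620264 for Lrrc8c, both on the minus strand of GRCr8, with capitals as above.
Lrrc8b: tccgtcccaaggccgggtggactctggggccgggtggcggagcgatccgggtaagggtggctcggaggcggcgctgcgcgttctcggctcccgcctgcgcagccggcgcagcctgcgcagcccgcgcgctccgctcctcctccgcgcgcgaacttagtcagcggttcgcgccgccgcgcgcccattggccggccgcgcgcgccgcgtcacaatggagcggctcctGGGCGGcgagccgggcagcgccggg
Lrrc8c: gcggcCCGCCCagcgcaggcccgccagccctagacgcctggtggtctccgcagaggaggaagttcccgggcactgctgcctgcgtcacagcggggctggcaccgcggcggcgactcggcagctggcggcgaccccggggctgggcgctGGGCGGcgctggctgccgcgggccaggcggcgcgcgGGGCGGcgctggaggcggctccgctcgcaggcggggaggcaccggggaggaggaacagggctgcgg
Both windows are rich in G and C, at 78.4% for Lrrc8b and 80.4% for Lrrc8c, where the median over all windows was 51.2%. Lrrc8b held 1 GC box and Lrrc8c held 3.

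Nfat5 (ENSRNOG00000011879), the transcription factor that turns on genes for osmolyte uptake and synthesis in concentrated fluid, had 4089, 4716, 5162, 4769 and 4449.9 normalized counts in shControl and 5623, 5358, 5578, 5481 and 5145 in shOpn3. It rose slightly, in 5 of 5 pairs, and shControl replicate 3 stood just above shOpn3 replicate 5 (means 4637 ± 398 and 5437 ± 192, SD of 5 samples each; 0.23 on the log2 scale, SE 0.0716, adjusted p in limma = 0.0395). This call was lost in 12 of 21 alternative fits, with adjusted p from 0.00645 to 0.0977, among them each fit that left out an shOpn3 sample. Among its known targets, Akr1b1, Slc6a6 and Slc6a12, which make or import osmolytes, were not called (limma adjusted p = 0.672, 0.473 and 0.772, with the block 0.560, 0.211 and 0.674). Its targets as a whole were not examined.

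**Figure D5:**
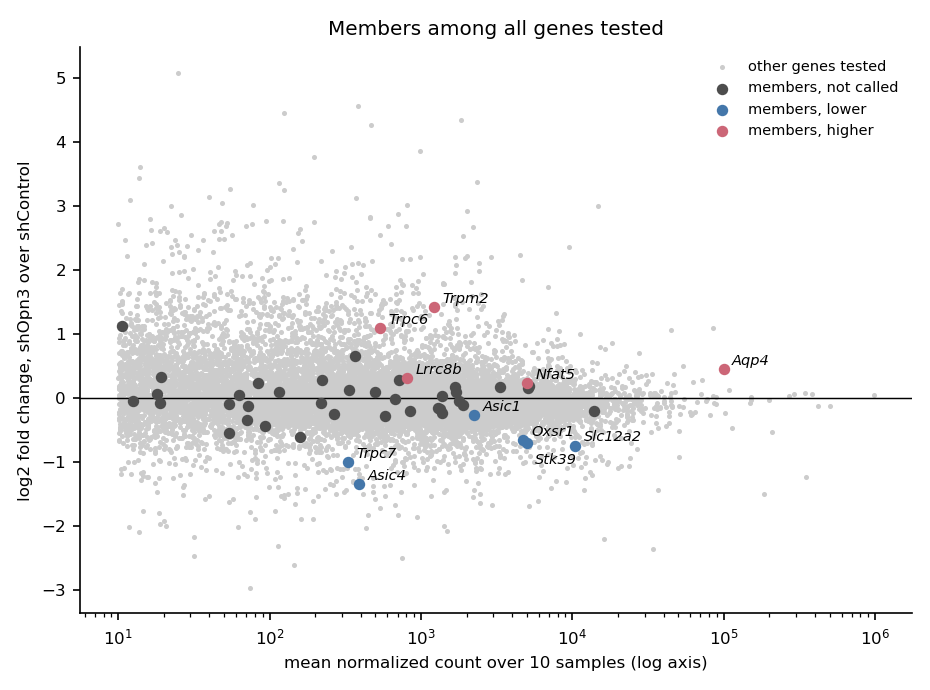
Log2 fold change (shOpn3 over shControl) against mean normalized count over 10 samples (log axis) for the genes tested, with 47 of the 49 members as larger points. The called members lie inside the cloud of the other genes, between Asic4 at -1.33 and Trpm2 at 1.43.

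Other genes of ion and volume control, from a list of 47 outside the naming rule, were called at much the same share. Of 46 tested, 9 were called (19.6%), 3 higher and 6 lower, beside 18.8% of all genes tested (10.4% higher, 8.48% lower). Their median log2 fold change was -0.05, and Clcn2 had 0 reads. With the block 16 of the 46 were called, beside 30.3% of all genes tested. The 6 with the smallest adjusted p were Kcnj10, Gja1, Tmem63a, Ano10, Ano6 and Ttyh2, and for each of them the groups did not overlap, beside 15.3% of all genes tested. They were picked by that p-value from the same samples, so this separation adds no support. Kcnj10, the glial potassium channel Kir4.1, had means of 3473 ± 621 and 2121 ± 327 normalized counts (SD of 5 samples each; -0.71 on the log2 scale, SE 0.136, adjusted p in limma = 0.00376). Tmem63a, a stretch-sensitive channel, fell as well (-1.15 on the log2 scale, SE 0.246, adjusted p in limma = 0.00664). Ttyh2, a membrane protein of the tweety family, changed by -0.90 (SE 0.247, limma adjusted p = 0.0235), a call lost without shControl replicate 1, shOpn3 replicate 2 or shOpn3 replicate 3. Tmem63a, Ttyh2 and the summed oligodendrocyte markers were all highest in shControl replicate 5 and lowest in shOpn3 replicate 2. Kcnj10 was highest in shControl replicate 1 (4160), with replicate 5 close to it (4079), and lowest in shOpn3 replicate 3 (1705), followed by replicate 2 (1831). The part of the markers in these falls was not tested. Ano10, of the anoctamin family, changed by -0.28 (SE 0.0645). Gja1, the gap junction protein connexin 43, and Ano6, a lipid scramblase and ion channel, rose by 0.42 and 0.36 (SE 0.0866 and 0.0862). Cab39l codes for a partner protein that activates SPAK and OSR1 and is named after its values were seen. It fell, with means of 1567 ± 172 and 1255 ± 79.7 (SD of 5 samples each; -0.31 on the log2 scale, SE 0.0882, adjusted p in limma = 0.0260), with an adjusted p from 0.00400 to 0.0642 over 21 alternatives.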

How the data were processed

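RNA from single supraoptic nuclei was sequenced in 10 samples, 5 per group. The submitters' processing notes name FastQC, STAR, featureCounts and DESeq2; versions, genome build, annotation and strand setting are not given in the sources used here. The authors deposited a normalized signal, read counts per gene divided by 1 size factor per sample. All values came out as whole reads (tolerance 0.0001) once multiplied back, which gave the recovered reads, 33158341 to 39958578 per library. The deposited table also holds the authors' log2 fold changes, test score and p-values, from which adjusted p-values of Trpc1 and Piezo1 are quoted.

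Genes with a mean of at least 10 were tested with limma 3.58.1 in R 4.3.3 (two-sided, trended variance) on log2(value + 1), group as the only term, with Benjamini-Hochberg adjustment over all 15597 genes and a threshold of 0.05. The limma fits with and without the block and edgeR were run on simulated data with known changes. Those data had the same dispersion for every gene and no replicate effect. They therefore cannot decide between the fits with and without the block. Alternatives were other pseudocounts, filters and scalings, sample weights, edgeR 4.0.16 and DESeq2 1.42.0 on the recovered reads, a replicate block and leaving out each sample.

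Each rat received both viruses, but no source states that the replicate number marks the rat. Deviations from the group means of same-numbered samples correlated at 0.121 to 0.439 in 5 of 5 pairs. Samples with different numbers correlated at -0.447 to 0.360, so the ranges overlap and the pairing is not certain. The numbers were read as pairs, but the main fit leaves the pairing out and the replicate block uses it. With the block 18 members and 4726 genes were called, against 11 and 2940 without it. Members and lists were chosen with earlier results of these data known. Full statistics are given for called members and for a list of others with a known osmotic role, and for up to 6 called genes of the related list. Of the members tested, 2 are counted but not reported by name here.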

Additional observations from a re-analysis of the deposited data

Results flagged for a closer look

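In 8 of 104 group values examined, a single sample lay far from the other 4 of its group, by a gap larger than Dixon's 95% critical value, where chance alone gives about 1 group in 20. Of these, 3 were shControl replicate 5, the library with the lowest Opn3 of its group. There Trpc7 was low at 281 normalized counts (next 458), while Aqp9 was high at 629.8 (next 453) and Aqp4 at 95299 (next 83143). In shControl replicate 1, Slc12a5 was high at 6951 (next 4735), Wnk2 at 1969.6 (next 1361) and Oxt at 56716 (next 21354). In shOpn3, Stk39 was high in replicate 2 at 4498 (next 3768) and Trpa1 low in replicate 5 at 58.6 (next 78.7).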

How the results depend on the processing

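The 7 calls of Trpc6, Trpm2, Trpc7, Asic4, Slc12a2, Stk39 and Oxsr1 were made in all 21 alternative fits. Aqp4 lost its call without shOpn3 replicate 3 alone, Lrrc8b without any of 7 single samples, Asic1 in 9 fits and Nfat5 in 12. The replicate block raised the members called from 11 to 18 (8 higher, 10 lower) and all genes called from 2940 to 4726. edgeR with the replicate block called 4777 genes (47.9% of them higher) and 16 members, 10 of them lower (37.5% higher). Sample quality weights called 5062 genes (50.2% of them higher) and 19 members, 12 of them lower (36.8% higher). Leaving out 1 sample at a time gave 1987 to 3056 genes and 7 to 12 members, 2 to 5 higher and 5 to 8 lower. In those fits 54% to 58.7% of all genes called were higher, beside 28.6% to 50% of the members called. This difference in direction was not tested. The log2 difference of the Slc12a5 to Slc12a2 ratio was 0.77 to 1.08 in them. Among the genes followed, the direction turned only for genes not called. Trpv1 was -0.11 with quantile normalization and -0.054 to 0.110 on leaving out 1 sample, below 0 without shControl replicate 2, shOpn3 replicate 3 or shOpn3 replicate 4. Trpv4 was -0.19 with quantile normalization, -0.043 with edgeR, -0.038 with DESeq2 and -0.21 to 0.30 on leaving out 1 sample, below 0 without shControl replicate 2, shControl replicate 3 or shOpn3 replicate 4. Lrrc8a was 0.072 with sample quality weights and -0.12 to 0.061 on leaving out 1 sample, above 0 without shControl replicate 1, shOpn3 replicate 2 or shOpn3 replicate 3. Piezo2 was -0.29 to 0.038 on leaving out 1 sample, above 0 without shOpn3 replicate 3. The cause of these turns was not tested. Over the 36 genes whose fold change was followed through the alternatives, 674 of 755 values kept direction and side of the threshold, 37 lost and 29 gained a call and 15 turned. Depth limits Trpv4, Trpv6, Trpm8, Slc12a8 and Asic3 and the members under the filter, which had at most 91 reads in all.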
